A study of Homo sapiens with 4 samples.

Results

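Collagen chain genes were examined in SK-Hep1, a cell line from a human hepatic adenocarcinoma, for the active chromatin mark H3K27ac and for the position of SMARCB1, which is part of the core of SWI/SNF chromatin remodellers. The 40 genes were taken from a fixed list of chains, out of 19839 protein-coding genes of the autosomes and X, with 11 fibrillar, 6 basement membrane and 23 other chains. H3K27ac had been profiled by ChIP-seq in cells with a control shRNA and in cells with an shRNA against SMARCB1, called control and knockdown here, and SMARCB1 by its own ChIP-seq. Both kinds of shRNA cells were puromycin-selected for stable expression, and the labels do not say which shRNA the cells of the SMARCB1 library carried, nor whether a population was grown from 1 clone. With 1 library for each group, the spread between replicates is unknown and the conditions were not tested against each other. A peak list does not measure the amount of SMARCB1, so the knockdown itself was not checked here.

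Collagens are the main structural proteins of the extracellular matrix. Their chains coil around each other into helices, which are secreted and then assemble into fibrils, networks or shorter filaments according to the class of chain. In the liver, fibrillar collagens come mostly from stellate cells and fibroblasts, and type IV chains build the basement membranes of vessels and bile ducts. H3K27ac lies at active promoters and enhancers, so its length along a gene describes chromatin and not expression.

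For each gene, H3K27ac was measured as the number of bases covered by peaks in the gene record and 10 kb on either side. The control library held 13235203 tags and 35307 peaks over 79.5 Mb, and the knockdown library 10203310 tags and 34073 peaks over 70.9 Mb. The control thus had 1.30 times the tags of the knockdown, and its header gives a fragment length of 190 bp against 158 bp. The part of these library differences in the values below was not tested. Of the markers read for cell type, 6 of 7 fibroblast and mesenchymal genes had H3K27ac within 1 kb of a start in each library, against 2 of 10 hepatocyte genes in the control and 3 in the knockdown. Summed over each list, the mesenchymal markers covered 53938 bp in control cells and 48321 bp in knockdown cells, and the hepatocyte markers 10828 and 10194 bp. The hepatocyte-defining genes ALB, APOA1, TTR and HNF4A had none in either library, and neither did the endothelial KDR, TEK and TIE1. No endothelial start of 7 was marked. For marker genes without a listed start, PECAM1, CDH5 and VWF among them, either end of the gene record was used. The endothelial list covered 13871 and 17159 bp. Within it CDH5 had 7517 and 7197 bp, VWF 5320 and 6706 bp, ERG 1034 and 2356 bp and PECAM1 0 and 900 bp. Stellate cell markers had 2 of 6 starts marked in each library, with 16714 and 17249 bp, where DES, LRAT and HAND2 had none. PDGFRB is in both this list and the mesenchymal one, with 9158 and 9565 bp and a marked start in each library. Chondrocyte markers had 2 of 4 starts marked in each library, with 10520 and 8852 bp, where ACAN and COMP had none. Keratinocyte markers went from 0 to 1 of 5 starts and from 6542 to 10622 bp, and the part of these lists in the collagen values was not tested. Cells are pooled in a library, so a mark in fewer cells and a weaker mark in each cell cannot be told apart.

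The promoters of the type IV collagen genes are shown first, because these genes lie head to head in pairs and share the stretch between them. The sequences are RefSeq's on GRCh38.p14, written 5′ to 3′ on the strand named. Capitals mark each GC box (GGGCGG, or CCGCCC when read on the other strand) and each CCAAT motif (or ATTGG), and adjoining boxes run together. The first pair of genes, 126 bases apart, kept H3K27ac in both libraries; the second pair, 135 bases apart, had it in the control only; the last pair, 379 bases apart, kept it and gained more along COL4A5, and its last 250 bases before the COL4A5 start are shown.
COL4A1 and COL4A2, between the genes, chr13:110307158-110307283, plus strand: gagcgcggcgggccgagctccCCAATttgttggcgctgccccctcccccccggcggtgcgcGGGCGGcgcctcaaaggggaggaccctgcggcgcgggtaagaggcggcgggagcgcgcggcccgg
COL4A4 and COL4A3, between the genes, chr2:227164489-227164623, plus strand: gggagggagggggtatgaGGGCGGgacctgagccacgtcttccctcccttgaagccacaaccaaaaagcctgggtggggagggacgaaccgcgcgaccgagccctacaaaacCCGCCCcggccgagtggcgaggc
COL4A6 and COL4A5, before the COL4A5 start, chrX:108439588-108439837, plus strand: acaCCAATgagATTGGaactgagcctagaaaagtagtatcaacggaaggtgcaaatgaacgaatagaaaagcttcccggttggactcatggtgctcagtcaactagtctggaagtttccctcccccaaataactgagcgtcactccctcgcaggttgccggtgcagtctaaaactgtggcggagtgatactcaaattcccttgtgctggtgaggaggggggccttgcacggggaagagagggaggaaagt

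The stretch between COL4A1 and COL4A2 held 1 GC box, 1 CCAAT motif and 20 CpG dinucleotides. The stretch between COL4A4 and COL4A3 held 2 GC boxes, no CCAAT motif and 11 CpG. The bases before COL4A5 held no GC box, 2 CCAAT motifs and 8 CpG. Over the same length before the start of 15812 genes, a GC box was found in 46.9% at 126 bases, 48.1% at 135 bases and 55.8% at 250 bases. The CCAAT motif was found in 24.2%, 25.2% and 34.4%, and the median number of CpG was 10, 11 and 17. A match says only that the letters are there.

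Next are 4 further promoters of 250 bases, chosen because COL9A2 and COL15A1 lost their H3K27ac and because COL5A1 and COL18A1 were the 2 collagen genes with a SMARCB1 peak at a start.
COL9A2, chr1:40317287-40317536, minus strand: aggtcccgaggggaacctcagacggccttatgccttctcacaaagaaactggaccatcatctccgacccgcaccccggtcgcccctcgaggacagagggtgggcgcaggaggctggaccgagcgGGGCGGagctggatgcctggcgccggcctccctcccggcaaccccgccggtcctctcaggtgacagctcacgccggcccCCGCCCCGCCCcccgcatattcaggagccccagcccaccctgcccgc
COL15A1, chr9:98943657-98943906, plus strand: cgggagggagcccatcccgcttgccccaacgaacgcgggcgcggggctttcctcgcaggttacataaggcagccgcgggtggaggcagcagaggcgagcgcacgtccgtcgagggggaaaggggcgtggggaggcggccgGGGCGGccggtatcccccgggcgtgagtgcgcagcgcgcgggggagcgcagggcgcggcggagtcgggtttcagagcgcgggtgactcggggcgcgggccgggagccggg
COL5A1, chr9:134641553-134641802, plus strand: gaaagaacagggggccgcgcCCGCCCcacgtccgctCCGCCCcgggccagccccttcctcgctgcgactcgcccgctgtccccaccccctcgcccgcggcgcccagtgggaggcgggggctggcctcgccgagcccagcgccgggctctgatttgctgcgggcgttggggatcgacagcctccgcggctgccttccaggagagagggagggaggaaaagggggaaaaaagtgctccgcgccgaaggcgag
COL18A1, chr21:45404915-45405164, plus strand: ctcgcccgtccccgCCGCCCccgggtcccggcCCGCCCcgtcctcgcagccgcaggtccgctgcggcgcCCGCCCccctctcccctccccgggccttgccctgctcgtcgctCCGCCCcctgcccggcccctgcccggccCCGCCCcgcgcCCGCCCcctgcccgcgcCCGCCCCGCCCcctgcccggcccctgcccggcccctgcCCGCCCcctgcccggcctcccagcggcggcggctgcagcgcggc

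COL9A2 had 3 GC boxes and 22 CpG in these bases, COL15A1 had 1 and 38, COL5A1 had 2 and 29, and COL18A1 had 9 and 37. Of the 40 genes, 30 have a start in the RefSeq promoter table. The 12 of these with H3K27ac at the start in both libraries had 6 to 40 CpG, with a median of 18.5, and 8 of them held a GC box. The 4 with it in the control only had 16 to 22, also with a median of 18.5, and 3 held a GC box. The 14 with none had 1 to 38, with a median of 10.5, and 5 held a GC box. COL15A1 was the gene at 38 in that group. COL8A2 with 35, COL25A1 with 32, COL23A1 with 25 and COL26A1 with 22 were also above 18.5, and the rest of the group had 16 or fewer. Several CpG-rich promoters without H3K27ac at the start were thus among them.

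H3K27ac was present at most collagen genes in both libraries, and its length differed in both directions after knockdown. It was found at 34 of 40 in the control and 33 of 40 in the knockdown, or 85.0% and 82.5%, beside 76.5% and 75.7% of all protein-coding genes. A window around a long gene can hold more peaks, and the median collagen gene record was 154 kb against 24.5 kb for all genes. COL5A3, COL10A1, COL9A1 and COL14A1 had none in either library; they encode a type V chain, the chain of hypertrophic cartilage, a type IX chain and a fibril-associated chain. COL4A4, COL9A2 and COL15A1 had H3K27ac in the control only, 3 of the 36 genes with any (8.33%, against 2.65% of all genes with any). COL22A1 and COL26A1 had it in the knockdown only (5.56%, against 1.54%).

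A gene was counted as lower or higher where the covered lengths differed by at least 1.5-fold and at least 1 library covered 1000 bp or more. This length was reached by 34 collagen genes. After knockdown 7 were lower, COL1A2, COL4A3, COL4A4, COL9A2, COL9A3, COL15A1 and COL25A1, which is 20.6% beside 10.1% of the 14481 genes tested. Another 4 were higher, COL5A2, COL11A1, COL4A5 and COL26A1, which is 11.8% beside 2.78%. Long genes were called more often: of all tested genes with a record of at least 100 kb, 5.02% were higher and 11.5% were lower. Among the 21 tested collagen genes of that length, 4 were higher and 4 were lower (19.0% each). The other 23 genes differed by less than 1.5-fold. Lower genes outnumbered higher ones in most settings, such as 8 and 4 with 5 kb on both sides, but not in all. Dividing knockdown lengths by the genome ratio left 7 lower and 6 higher genes. With the gene records alone there were 5 lower and 5 higher. When 2500 bp was asked for in 1 library, 2 were lower and 3 higher. With the wider 50% of each peak list, 1 was lower and 4 were higher. The 7 lower genes named above also count the peak shared by COL4A3 and COL4A4 under each gene. The median ratio of knockdown to control length was 0.858 over the 33 tested collagen genes with control H3K27ac, and 0.888 over the 14406 such genes in all.

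**Figure D1:**
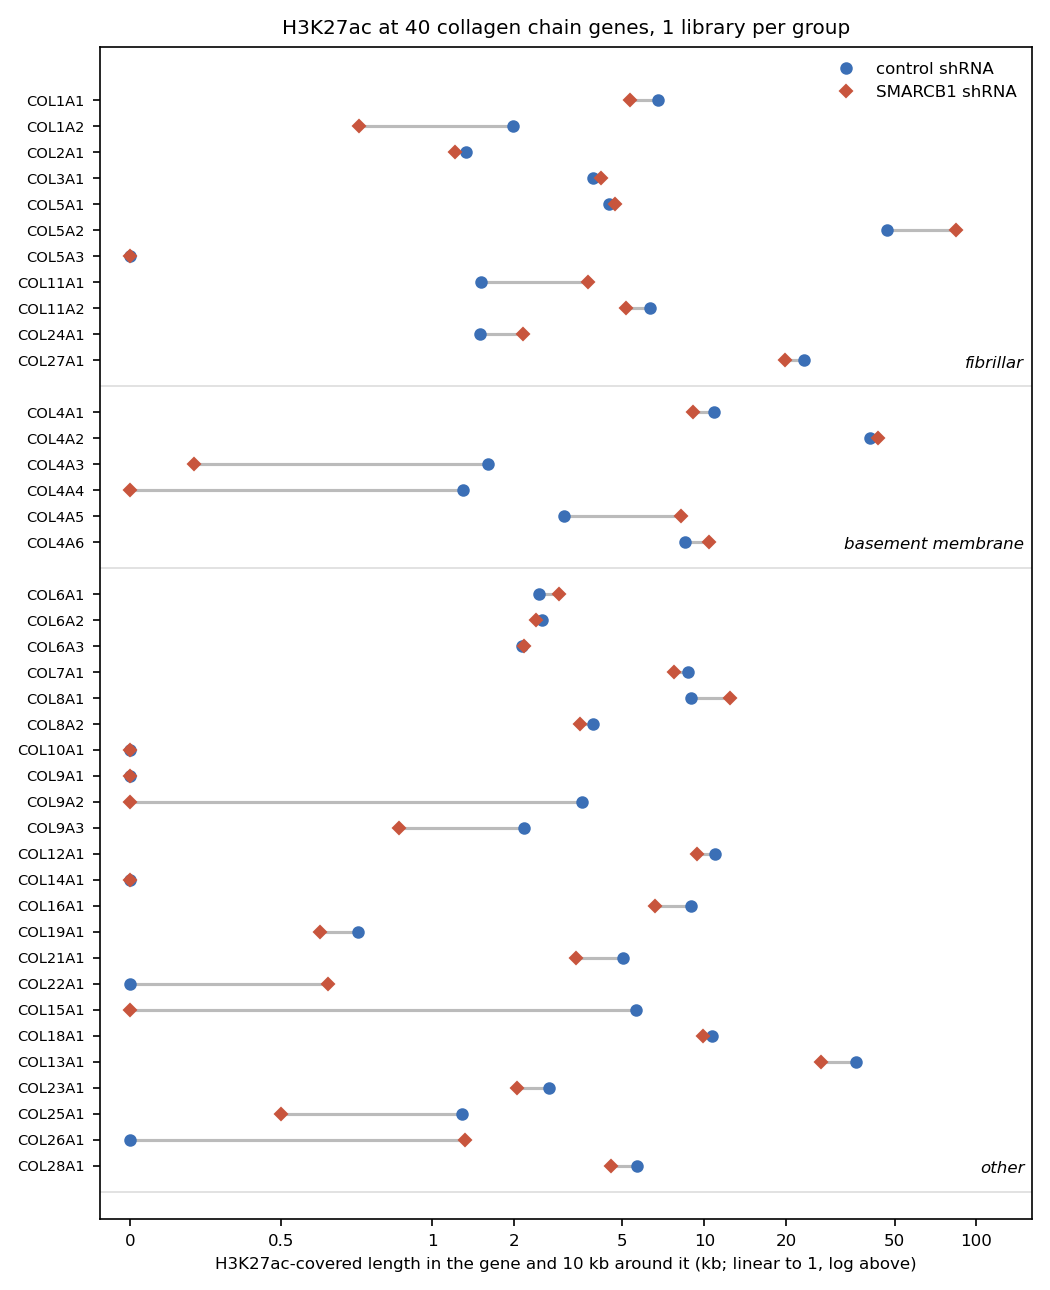
H3K27ac-covered length in kb (horizontal axis, linear to 1 and logarithmic above) for each of the 40 collagen genes, grouped by class, with a circle for the control library and a diamond for the knockdown library; there are no error bars because each group has 1 library. COL5A2 lies farthest right, at 47101 and 84147 bp, and the diamonds of COL4A4, COL9A2 and COL15A1 sit at 0.

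**Figure D2:**
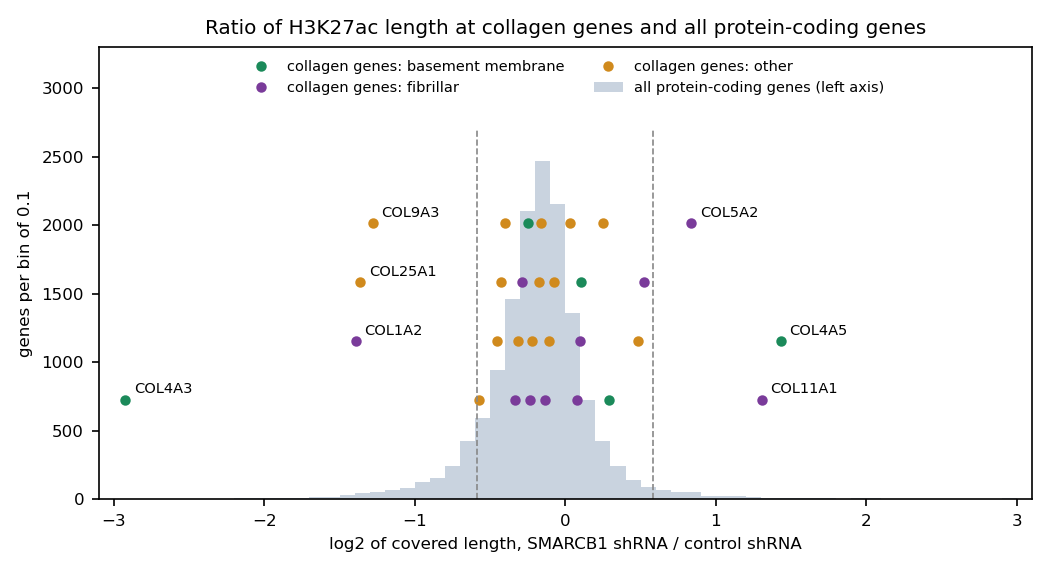
Histogram of the log2 ratio of knockdown to control length for 14315 protein-coding genes tested with H3K27ac in both libraries (vertical axis, genes per bin; ratios past the axis are in the end bins), with the 30 collagen genes of that kind as dots whose height has no meaning. Dashed lines mark 1.5-fold, or 0.58 on the log2 scale, and the named dots outside them are 4 lower and 3 higher genes.

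Summed over the 40 genes with each base counted once, H3K27ac covered 277522 bp in control cells and 293759 bp in knockdown cells, a ratio of 1.06, while the ratio over the genome was 0.892. COL5A2 decided this direction: without it the lengths were 230421 and 209612 bp, a ratio of 0.910. The bases covered in both libraries came to 219232, those in the control alone to 58290 and those in the knockdown alone to 74527. Of the bases in the control alone, 8.12% lay within 1 kb of a start, and of those in the knockdown alone 0.721%. The stretch around a start is a small part of these windows, where the median gene record was 154 kb. These shares therefore do not show that losses or gains avoided the starts.

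By class, fibrillar genes covered 98161 bp in control cells and 131243 bp in knockdown cells, a ratio of 1.34 that became 0.922 without COL5A2. Basement membrane genes covered 57309 and 64644 bp, a ratio of 1.13, and the COL4A2 window held 40585 bp of the control length. The median ratio of these 6 genes was 0.959. By 1.5-fold, 2 of them were lower and 1 was higher, COL4A5, which gained 5194 bp. The remaining genes covered 122052 and 97872 bp, a ratio of 0.802. Among these, the fibril-associated genes stood at 0.685, the multiplexins at 0.609 and the transmembrane chains at 0.734, and the beaded filament and network genes at 1.05 and 1.24. Several of these sums rest on 1 gene: COL15A1 for the multiplexins, since COL18A1 stood at 0.929, COL13A1 for the transmembrane chains, where it held 36042 of 40023 bp in the control, and COL8A1 for the networks, since COL8A2 stood at 0.893.

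COL5A2, which encodes a chain of type V collagen, the collagen that starts and limits the growth of type I fibrils, had the greatest covered length of the 40 genes in both libraries, over a gene record that model transcripts make longer than the curated one. Its covered length was 47101 bp in control cells and 84147 bp in knockdown cells, 1.79 times as much. The difference of 37046 bp ranked 1 among all 19839 genes, ahead of AJAP1 with 17026 bp and C2CD3 with 14620 bp. It made up most of the bases that collagen genes had in the knockdown alone, 38481 of 74527. In the control, 11.0% of the window was covered, less than at COL13A1 (20.3%) and COL4A2 (18.0%), and in the knockdown 19.6%, beside 15.1% and 19.3% at these genes.

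The gain at COL5A2 came from wider peaks more than from new ones. The control had 26 peaks there and the knockdown 24. Every one of the 26 control peaks had a counterpart, and 21 lay under a wider knockdown peak. Peaks that were apart in the control ran together: 4 knockdown peaks joined 10 control peaks. The widest, chr2:189104087-189117735, was 13649 bp long over 3 control peaks that covered 4224 bp, whereas the widest control peak was 4331 bp. A neighbouring knockdown peak, chr2:189120770-189133420, was 12651 bp long over 3 control peaks with 3491 bp. A further pair of joined peaks measured 7250 and 8515 bp. The knockdown had 4 peaks without a counterpart, of 501 to 1726 bp, and no SMARCB1 peak lay in the window. The COL5A2 record runs from 189031898 to 189441111 on chromosome 2, which takes in model transcripts as well as the curated one, so the covered length and its rank hold for this record. Its transcript starts are not in the table used here, and the peak at its upper end lies within 1 kb of WDR75.

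**Figure D3:**
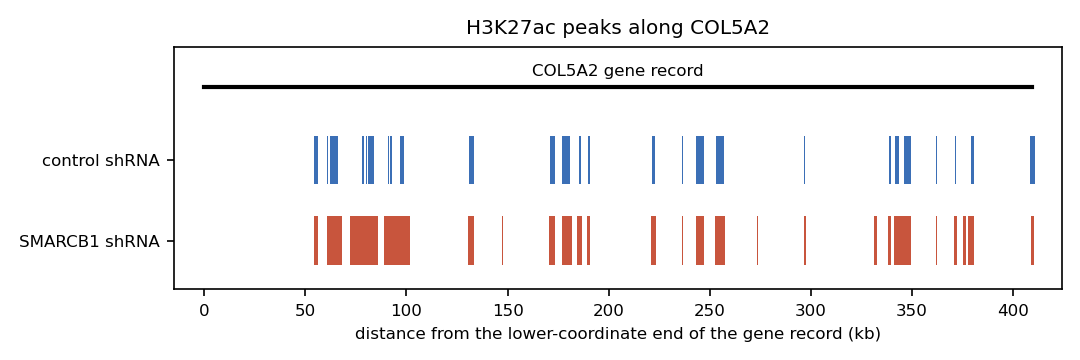
H3K27ac peaks along COL5A2 as bars at their distance in kb from the lower-coordinate end of the gene record (horizontal axis), with 1 row for each library and the gene record above. Toward the left, groups of narrow control peaks lie under broad knockdown peaks of 7250, 13649 and 12651 bp, while most other peaks stand in the same places in both rows.

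None of the other type V and type I genes was higher by 1.5-fold. COL5A1, the partner chain of COL5A2, covered 4464 bp in control cells and 4712 bp in knockdown cells, a ratio of 1.06. COL1A1, the more abundant chain of type I collagen, covered 6741 and 5351 bp, a ratio of 0.794. COL1A2, the second type I chain, covered 1985 and 757 bp, a ratio of 0.381. The 2 control peaks of COL1A2 that had no counterpart were 501 and 835 bp long, and the longer, chr7:94394498-94395332, lay across the lower end of the gene record. COL3A1, the type III chain of vessels and skin, which neighbours COL5A2 on chromosome 2, had 2 peaks in each library, 3893 and 4158 bp in all, and none within 1 kb of an end.

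COL11A1, a chain of the type XI collagen that nucleates cartilage fibrils, was 2.47 times as long in the knockdown, from 1507 to 3727 bp. Its shared peak, 227 kb downstream of the start in the knockdown, widened from 1507 to 3226 bp, and a knockdown peak of 501 bp appeared 1.36 kb downstream of the start. COL24A1 had 1504 and 2159 bp, with its shared peak 305 kb from the nearest start in the control. COL27A1, which encodes a fibrillar chain of cartilage, had 23343 and 19875 bp in 7 peaks each and kept its start peak. At COL2A1, the main cartilage collagen, and COL11A2, the peaks lay outside the gene record, at 1333 and 1214 bp beside TMEM106C and at 6290 and 5143 bp partly at RXRB and SLC39A7. These lengths therefore belong to the window and not to the collagen gene's own record.

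Among the type IV genes, each head-to-head pair showed a different pattern. COL4A1 and COL4A2 encode the chains found in nearly every basement membrane, and their shared start kept a peak of 3429 bp in control cells and 3332 bp in knockdown cells. COL4A1 covered 10816 and 9112 bp, a ratio of 0.842. COL4A2 covered 40585 and 43649 bp, a ratio of 1.08, with 17 peaks reaching 136 kb into the gene in the control and 19 reaching 178 kb in the knockdown. The longest of them measured 7979 bp in control cells and 7059 bp in knockdown cells. COL4A2 was thus second to COL5A2 in H3K27ac length among collagen genes in both libraries.

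COL4A3 and COL4A4 encode chains that join the product of COL4A5 in the basement membrane of the kidney glomerulus. Their shared start had a control peak of 1302 bp, chr2:227163824-227165125, with no counterpart in the knockdown. COL4A4 went from 1302 to 0 bp. COL4A3 went from 1600 to 211 bp, and what remained came from a peak at the end of the neighbouring gene MFF. The 2 calls therefore rest on the same peak.

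COL4A5, mutated in the X-linked form of Alport syndrome, covered 3051 bp in control cells and 8245 bp in knockdown cells, a ratio of 2.70, and its gain ranked 43 among all genes. The peak at the start it shares with COL4A6 was nearly equal, at 3051 and 3118 bp. The knockdown had 5 further peaks of 501, 501, 501, 2031 and 1593 bp, from 2.14 to 28.2 kb downstream of the start, where the control had none. COL4A6 covered 8499 and 10378 bp, a ratio of 1.22, and its peak 37.1 kb from a start in the control widened from 4039 to 5386 bp.

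**Figure D4:**
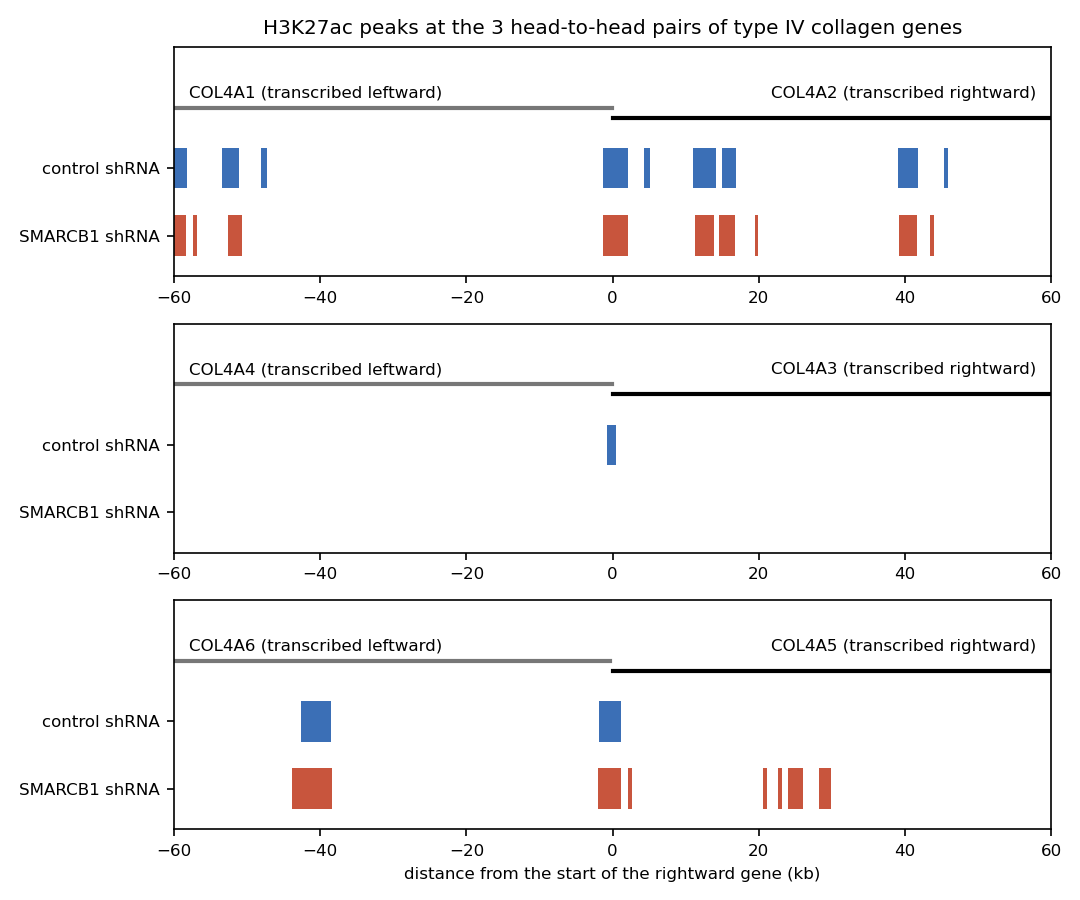
H3K27ac peaks within 60 kb of the shared starts of the 3 type IV gene pairs (horizontal axis, distance in kb from the start of the rightward gene), with 1 row for each library. The start peak is in both rows for the COL4A1 and COL4A6 pairs and in the control row only for the COL4A4 pair, and the knockdown row of the COL4A6 pair has 5 peaks to the right that the control row lacks.

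The 3 genes that lost all of their window length were COL4A4, COL9A2 and COL15A1. COL15A1 encodes a multiplexin of the basement membrane zone, and it went from 5589 bp in 6 control peaks to 0 bp. These peaks were 501 to 1513 bp long and lay 45.2 to 114 kb downstream of the start, while the start itself had no H3K27ac in either library. COL18A1, the other multiplexin, whose product releases endostatin, covered 10657 and 9900 bp, a ratio of 0.929, in 6 peaks each. COL9A2, a chain of the type IX collagen that sits on cartilage fibrils, had a control peak of 2406 bp beginning 136 bp downstream of its start and a second of 1147 bp, 12.1 kb downstream. Neither had a counterpart. COL9A3, its partner chain, went from 2167 to 892 bp and lost a peak of 501 bp near the lower end of its record, and of the 892 bp that remained, 501 lay in the gene record.

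**Figure D5:**
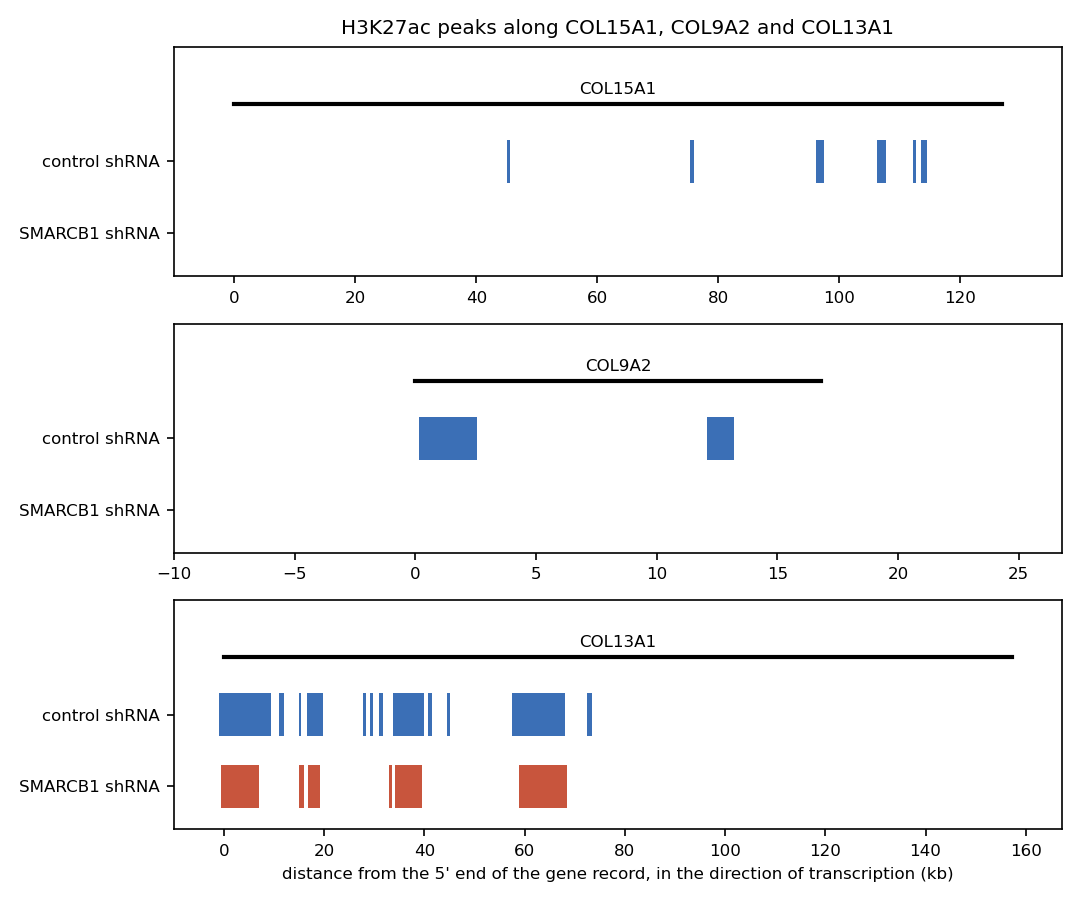
H3K27ac peaks along COL15A1, COL9A2 and COL13A1 as bars at their distance in kb from the 5′ end of the gene record (horizontal axis, a scale for each gene), with 1 row for each library. The knockdown rows of COL15A1 and COL9A2 are empty, and COL13A1 falls from 12 peaks to 6 while keeping its widest.

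The transmembrane chains differed in how much H3K27ac they had. COL13A1, a chain found at cell contacts and at the neuromuscular junction, covered 36042 bp in 12 control peaks and 26846 bp in 6 knockdown peaks, a ratio of 0.745. The loss of 9196 bp ranked 60 among all genes but stayed within 1.5-fold. Its start peak narrowed from 10355 to 7643 bp, and the control peaks of 501 to 1081 bp without a counterpart lay between or beside wider ones that were kept. COL25A1, a chain of neurons, had 1287 bp in 2 control peaks and 501 bp in 1 knockdown peak, with no shared base. COL23A1 had 2694 and 2043 bp at the end of PHYKPL and none in its own record.

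The remaining fibril-associated chains were mostly within 1.5-fold. COL12A1, a chain of tissues under tension such as tendon, covered 10980 and 9425 bp in 5 peaks each. COL16A1 covered 8969 and 6562 bp, and 106 bp of a control peak reached the 1 kb around its start. COL21A1 covered 5019 and 3368 bp, a ratio of 0.671, just short of the 1.5-fold difference. COL19A1 had 754 and 629 bp at its start, under the 1000 bp needed. COL22A1, a chain of the muscle-tendon junction, had 0 and 657 bp.

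Chains of beaded filaments, anchoring fibrils and networks stayed within 1.5-fold, apart from COL10A1, which had no H3K27ac. The type VI genes were close to equal: COL6A1 had 2474 and 2936 bp, COL6A2 had 2539 and 2410 bp, and COL6A3 had 2137 and 2183 bp. COL7A1, which anchors the epidermis to the dermis, had 8733 and 7751 bp, and a good part of it lay at the ends of neighbouring genes, where 1 peak of 4413 bp in the control touched PFKFB4 and UCN2. COL8A1, a chain of networks under endothelium, covered 8902 bp in 5 peaks and 12422 bp in 8 peaks, a ratio of 1.40, and this gain ranked 98 among all genes. COL8A2 had 3902 and 3485 bp. COL26A1 went from 0 to 1320 bp with a knockdown peak 39.0 kb downstream of its start, and COL28A1 had 5654 and 4542 bp in 3 peaks each.

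Within 1 kb of the gene starts, H3K27ac was present at fewer collagen genes after knockdown. It lay there at 22 collagen genes in the control and 16 in the knockdown, and these 16 all had it in both. For the 10 genes without a listed start, either end of the gene record was used. COL5A2 counted among the 16 only through a peak at the upper end of its record that lies within 1 kb of an end of WDR75. Without COL5A2, 21 genes had H3K27ac at a start in the control and 15 in the knockdown. COL1A2, COL4A3, COL4A4, COL9A2, COL9A3 and COL16A1 had it in the control only, while 3.07% of all genes with H3K27ac at the start in either library did. COL4A3 and COL4A4 share 1 peak, and the length at COL16A1 was 106 bp. Starts marked in both libraries could also gain length, as at COL7A1 with 501 and 627 bp, and with 2.5 kb around the start 1 gene had H3K27ac in the knockdown only.

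Peaks without a counterpart were as frequent in the knockdown as in the control at collagen genes. In the control, 31 of 142 peaks had none, or 21.8% (95% Wilson interval 15.8 to 29.3, which covers counting of peaks only), beside 17.7% of all control peaks. In the knockdown, 29 of 133 had none, also 21.8% (15.6 to 29.6), beside 12.2% of all knockdown peaks. The median of these unmatched peaks was 681 bp wide in the control, against 2000 bp for those with a counterpart, and 501 against 1968 bp in the knockdown. No peak at these genes was narrower than 501 bp, so the median unmatched knockdown peak was at the smallest width listed. The equal shares rested partly on COL5A2. Without it, an alternative chosen after seeing the data, 26.7% of 116 control peaks and 22.9% of 109 knockdown peaks had no counterpart.

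SMARCB1 peaks were found in the windows of collagen genes about as often as in those of all genes. Of the 40 genes, 10 had a SMARCB1 peak in the window, beside 23.2% of all genes. The median collagen gene record was 154 kb against 24.5 kb for all genes, and the part of gene length in the window share was not tested. Within 1 kb of a start, 2 had one, a smaller share than the 12.0% of all genes, on few genes. No SMARCB1 peak lay at the 7 lower or the 4 higher collagen genes, beside 26.6% of all genes called lower and 15.7% of all called higher. With so few genes, nothing is read from these counts. Of the control H3K27ac peaks at collagen genes, 9 overlapped a SMARCB1 peak (6.34%, 3.37 to 11.6), beside 8.65% of all control peaks. In the knockdown it was 7 (5.26%, 2.57 to 10.5), beside 8.82%. The position classes and values that follow are the authors' own, and no source used here gives the unit of the value.

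At COL5A1 the SMARCB1 peak, chr9:134641434-134642224, was classed as promoter, had a value of 19.0 and ranked 642 of 4453; it overlaps the promoter printed above and lay under H3K27ac in both libraries. At COL18A1 the peak, chr21:45404438-45404937, was also classed as promoter, with a value of 10.6, and reached into the first bases of the printed promoter. COL16A1 had an intronic SMARCB1 peak with a value of 12.1 inside H3K27ac of both libraries. The peaks at COL7A1, COL8A2 and COL11A2 that overlapped H3K27ac had values of 12.7 to 15.3, and those at COL7A1 and COL8A2 and the stronger of the pair at COL11A2 lay within 1 kb of another gene's end. COL1A1 had a SMARCB1 peak with a value of 12.7 near SGCA, which the control H3K27ac covered over 500 bp and the knockdown H3K27ac over 0 bp. Those at COL6A2, COL22A1 and COL23A1 were intronic, had values of 8.98 to 10.6 and lay outside H3K27ac in both libraries, as did a second peak at COL7A1 with a value of 10.0.

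Genes whose products make, bind or break down collagen were mostly within 1.5-fold. Of 54 such genes, 44 were tested and 40 of these were within 1.5-fold. The 2 lower genes were a smaller share than the 10.1% of all tested genes. The 2 higher genes were a larger share than the 2.78%, on few genes. The summed length of the 54 was 361830 bp in control cells and 315281 bp in knockdown cells, a ratio of 0.871. SMARCB1 peaks lay at 19 of the 54, a larger share than the 23.2% of all genes. Their median gene record was 35.7 kb against 24.5 kb for all genes, and the part of gene length in this share was not tested. Of the 30 that modify, process and cross-link the chains, ADAMTS2, which removes the N-terminal propeptide of procollagen, went from 2665 to 0 bp. ADAMTS3, a relative that also cleaves procollagen, went from 2645 to 5061 bp, and TLL2, a tolloid-like protease, from 0 to 1002 bp. The longest of the rest were LOXL2, a cross-linking lysyl oxidase, with 56806 and 47504 bp, and P3H2, a prolyl hydroxylase of type IV chains, with 18687 and 17607 bp.

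Of the 8 collagen receptors, ITGA2, the alpha chain of a collagen-binding integrin, went from 13991 to 9210 bp and was the only one called. ITGB1, its beta partner, had 17497 and 14641 bp, and DDR2, a receptor kinase for fibrillar collagen, had 15419 and 13789 bp. Of 11 genes for breakdown and its inhibitors, 7 were tested and none was called; TIMP2, an inhibitor of metalloproteases, had 22446 and 18078 bp, and MMP14, a membrane-bound collagenase, had 10088 and 13363 bp. Of 5 fibril-binding proteins, SPARC had 28143 and 20963 bp, and the proteoglycan genes DCN, BGN, LUM and FMOD had no H3K27ac in either library.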

How the data were processed

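The sources were peak lists of 3 ChIP-seq libraries, 1 for each group, grouped by their titles; an input library is labelled and was not analysed here. The hg38 build, Bowtie2 and HOMER are named in the submitters' processing notes, and their versions were not given in the sources used here. HOMER called each H3K27ac list in histone style against 1 and the same control input, per the file headers, with a 500 bp peak size, a minimum distance of 1000 bp and 4.0-fold over input and over the local region. The score in the deposited H3K27ac lists is 1 for every peak, so covered length was used. It is not a read level and can be set by peak joining and depth. For the SMARCB1 library, no source used here gives caller settings or depth.

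Windows of 10 kb around RefSeq gene records of GRCh38.p14 (the main chromosomes equal hg38) were intersected with peaks in Python 3.11.15 with NumPy 2.4.6; all 80 covered lengths of the collagen genes matched bedtools 2.31.1, and the code was tested on simulated data. Overlap meant at least 1 base. Left out were 3 peaks of each H3K27ac list and 217 genes outside the main autosomes and X. Starts came from the RefSeq promoter table, with any listed start counted. Shares have 95% Wilson intervals. All 40 listed genes are accounted for, and from the collagen pathway list those past the 1.5-fold rule and the 2 longest others of each group are named. The members and lists were chosen with earlier results of these data known. Alternatives covered the window, peak width, overlap, fold, minimum length, the SMARCB1 value and the start window. Figures were drawn with matplotlib 3.10.9.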

Additional observations from a re-analysis of the deposited data

How the results depend on the processing

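Each group has 1 library, so spread between samples is unknown and no library could be left out. No paired analysis was possible because each group has 1 library and no test was made. Of 84 recomputed counts, shares and ratios, 70 were kept. This meant within 1.5 times for counts, inside the interval for shares, and within a narrower margin on the same side of 1 for the ratio. With gene records alone, 5 collagen genes had H3K27ac in the control only and 6 had a SMARCB1 peak, as did 6 with the SMARCB1 peaks in the upper 50% of the authors' value. With H3K27ac peaks of at least 1000 bp, 1 gene had it in the knockdown only, and peaks without a counterpart were 12.6% in the control and 12.0% in the knockdown. With the wider 50% of each list, 1 gene had it in the control only, 1 was lower and 4 higher, the shares were 5.88% and 14.9% and the ratio of summed length was 1.15; narrow peaks such as those of COL15A1 leave by construction. Asking for 2500 bp in 1 library left 2 lower and 3 higher genes, so in both settings higher genes outnumbered lower ones; gene records alone gave 5 and 5, and division by the genome ratio 7 and 6. With 2.5 kb around the start, 1 gene had H3K27ac there in the knockdown only. Without COL5A2, an alternative chosen after seeing the data, the ratio reversed to 0.910. Of 110 values of single genes, 90 kept their call and 0 reversed. COL9A2, COL11A1 and COL4A5 kept theirs under all 10 alternatives, COL5A2 under 9 (not at a 2-fold difference), and COL1A2 under 6. The cause of these shifts was not tested beyond what the settings themselves remove.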
